A study of Mus musculus with 30 samples.

Results

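Fkbp5, Tsc22d3, Zbtb16 and Sgk1, 4 genes widely used as readouts of glucocorticoid action, were followed in the livers of 30 mice that had been gavaged daily. They were taken as the probes whose platform gene symbol is one of these names. All 4 were found, with 1 probe each, among 12544 probes that carry 1 gene symbol and 8996 genes tested. Liver RNA was labelled with Cy3 and hybridised to one-colour Agilent arrays, 1 mouse per array, and values are log2 intensities after background correction and quantile normalisation.

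Every mouse was 8 weeks old at the start, ate standard chow and was force-fed 500 µl a day for 30 days. The controls were thus gavaged too, and any stress of gavage applied to them as well. In the chicory experiment, 6 mice received a decoction of chicory roots of genotype G35, 6 a decoction of genotype G12 (each 10 mg of root powder per mouse and day), and 6 received water (Ctr1). In a later experiment, 6 mice received inulin, the fructan stored in chicory roots, at 6.9 mg per mouse and day, a dose set to match the inulin of G35 roots, and 6 received water (Ctr2). Each set of 6 held 3 females and 3 males. The strain and the hour at which livers were taken are not given in the sources used here. No group was left without gavage, fasted or given a glucocorticoid, so the levels have no ungavaged or stimulated point to be set against. The liver came from the centre of the left lobe, in which the hepatocyte markers measured lay at percentiles 92.4 to 100 of all genes. Of 5 measured markers of T, NK and B cells, Cd4 lay at percentile 83 and the others at 0.4 to 32.7.

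Glucocorticoids enter cells and bind the glucocorticoid receptor, which is held in the cytoplasm by Hsp90 and its co-chaperones, moves to the nucleus and binds palindromic DNA elements near its targets. In liver this pathway supports gluconeogenesis between meals, restrains inflammation and carries the daily rhythm of the adrenal hormone. Fkbp5 encodes a co-chaperone that lowers the receptor's affinity for hormone, a negative feedback. Tsc22d3 encodes GILZ, a leucine zipper protein that mediates part of the anti-inflammatory action. Zbtb16 encodes the zinc finger repressor PLZF, and Sgk1 a kinase of the phosphoinositide 3-kinase pathway best known for its control of sodium transport.

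The genes lie on different chromosomes, which in RefSeq on GRCm38.p6 are chr17:28398753-28486149 for Fkbp5, chrX:140539528-140600522 for Tsc22d3, chr9:48651797-48836225 for Zbtb16 and chr10:21882184-21999903 for Sgk1. RefSeq promoter windows were matched for Fkbp5 (1 start), Tsc22d3 (3 starts) and Sgk1 (6 starts). The 250 bases before each start were searched on both strands for the hexamer AGAACA and for the full palindrome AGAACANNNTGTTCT, which contains that hexamer on each strand. The hexamer was present before 4 of the 10 starts, 3 of Sgk1 and 1 of Tsc22d3. Among all 32851 such windows before RefSeq starts of the mouse, these 10 included, 16.1% held it. The full palindrome was present before 1 start, of Sgk1, and in 3 of the 32851 windows (0.00913%), that of Sgk1 included. The window of that Sgk1 start and the Tsc22d3 window that holds a hexamer are shown because these genes were called between the control groups of the experiments. Both run 5′ to 3′ along the strand of the gene, with matches in capitals.
Sgk1, chr10:21993640-21993889, plus strand: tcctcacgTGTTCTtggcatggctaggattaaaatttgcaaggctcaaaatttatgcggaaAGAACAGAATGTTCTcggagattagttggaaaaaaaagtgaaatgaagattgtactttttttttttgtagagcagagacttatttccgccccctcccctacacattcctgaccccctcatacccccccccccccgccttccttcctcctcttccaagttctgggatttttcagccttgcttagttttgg
Tsc22d3, chrX:140600523-140600772, minus strand: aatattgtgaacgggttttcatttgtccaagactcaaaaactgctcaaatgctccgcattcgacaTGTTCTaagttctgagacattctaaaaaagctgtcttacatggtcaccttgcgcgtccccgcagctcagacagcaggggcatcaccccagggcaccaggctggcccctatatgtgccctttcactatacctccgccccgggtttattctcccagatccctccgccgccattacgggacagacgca
In the Sgk1 window the palindrome covers bases -189 to -175 from the annotated start at 21993890, and it ends 951 bases before the most downstream Sgk1 start. The Tsc22d3 hexamer lies at -185. A match describes the letters of the window, and binding of the receptor was not measured.

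Between groups of sex and gavage, mean levels spanned 1.05 log2 for Fkbp5, 1.43 for Tsc22d3, 1.42 for Zbtb16 and 0.84 for Sgk1. The SD between mice within groups was 0.27 for Fkbp5, 0.36 for Tsc22d3, 0.57 for Zbtb16 and 0.25 for Sgk1, with a median of 0.23 over all genes. Zbtb16 was thus more variable between mice of one group than 95.6% of genes, and Tsc22d3 than 85.7%. Deposited intensities ran from 509 to 2862 for Fkbp5, 711 to 6523 for Tsc22d3, 174 to 2420 for Zbtb16 and 154 to 1069 for Sgk1, on a scale that reached 65535, so that no member was saturated.

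**Figure D1:**
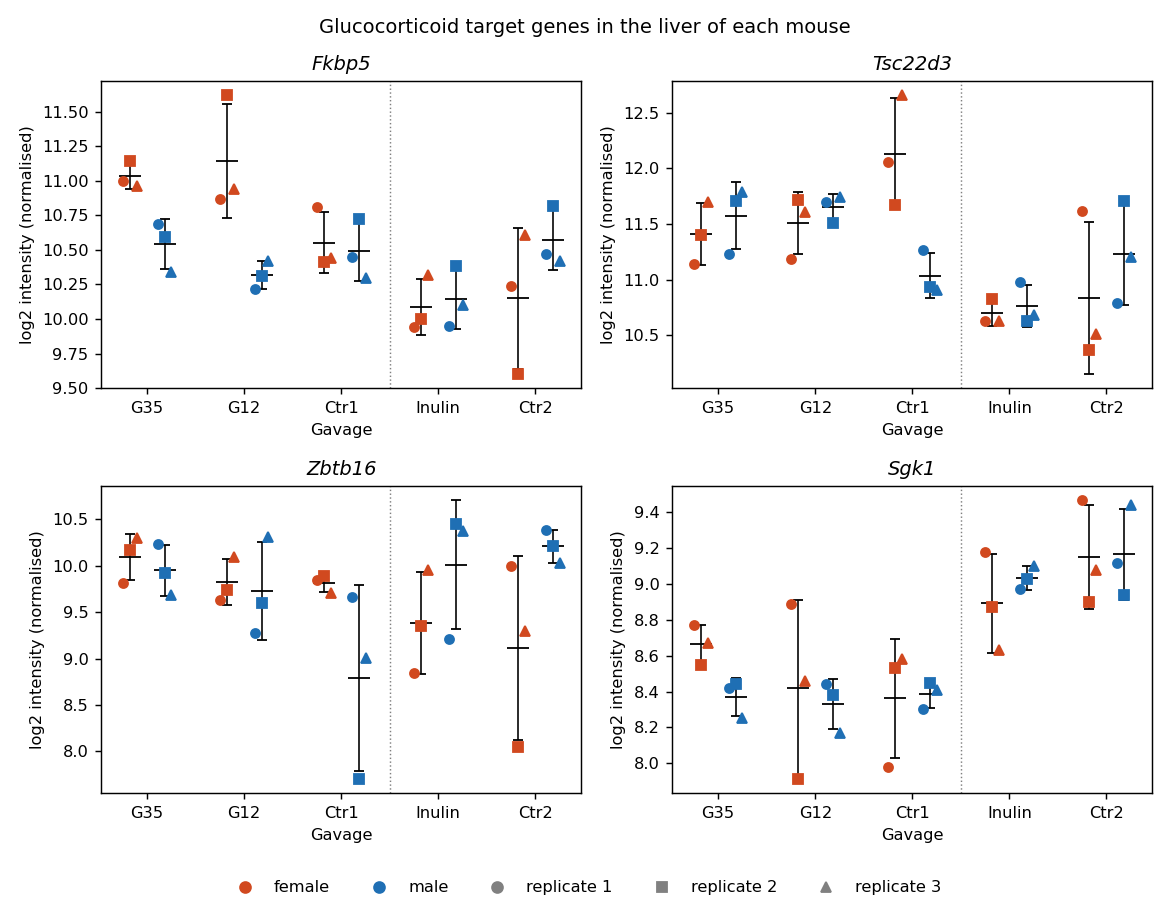
Normalised log2 intensity of each gene (vertical axes, which do not start at 0) in each of the 30 mice by gavage, with females left of males, marker shape for the replicate number and bars for the mean ± SD of 3 mice. The dotted line parts the chicory experiment (G35, G12, Ctr1) from the inulin experiment (Inulin, Ctr2). Sgk1 lies at 7.91 to 8.89 in the first and at 8.63 to 9.47 in the second, and 1 male Ctr1 mouse has Zbtb16 at 7.70.

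The first comparison set mice given chicory decoctions against their water controls. None of the 4 genes passed the test under G35 or under G12, averaged over the sexes or in either sex. The call rule, limma with an adjusted p under 0.05 over all genes, was met by 0.0556% of genes under G35 and by 0% under G12. In single sexes it was met by 0% of genes in G35 females, 0.0111% in G35 males, 0.0778% in G12 females and 0% in G12 males. At an unadjusted p under 0.05, 1 member (Zbtb16) passed under G35, where 7.87% of all genes did, and 0 under G12, where 5.21% did. G35 and G12 share the Ctr1 mice, so their values are given side by side and are not independent of each other.

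Fkbp5 was at 11.00, 11.14 and 10.96 log2 in female G35 mice and at 10.69, 10.59 and 10.34 in male G35 mice. It was at 10.87, 11.62 and 10.94 in female G12 mice and at 10.22, 10.31 and 10.42 in male G12 mice. Levels in Ctr1 were 10.81, 10.41 and 10.44 in females and 10.45, 10.72 and 10.30 in males. All treated females lay above all control females, whereas treated and control males overlapped. Among all genes, 4.88% were higher without overlap in G35 females and 5.44% in G12 females. The log2 difference from Ctr1, averaged over the sexes, was 0.27 ± 0.15 under G35 (SE, 6 mice against 6, adjusted p = 0.697, 95% interval -0.04 to 0.57). Under G12 it was 0.21 ± 0.15 (adjusted p = 0.976, interval -0.10 to 0.52). In females alone the differences were 0.48 ± 0.21 under G35 (adjusted p = 0.56) and 0.59 ± 0.21 under G12 (adjusted p = 0.304), and in males 0.05 ± 0.21 and -0.18 ± 0.21. Without female G12 replicate 2, the highest value, the female difference under G12 was 0.35.

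Tsc22d3 lay on opposite sides of its controls in the sexes, and no difference passed. Female G35 mice had 11.14, 11.40 and 11.70 log2 and female G12 mice 11.19, 11.72 and 11.61, against 12.06, 11.67 and 12.66 in female Ctr1 mice. Male G35 mice had 11.23, 11.71 and 11.79 and male G12 mice 11.70, 11.51 and 11.74, against 11.27, 10.93 and 10.91 in male Ctr1 mice. Treated females thus lay mostly below their controls and treated males mostly above theirs, with a complete separation only for G12 males, where 5.6% of all genes were higher without overlap. The 2 measured pancreatic acinar markers were also high in G12 males, with a summed level of 11.93 to 15.99 log2, against 9.19 to 9.27 in male Ctr1 mice, and neither was called (Ctrb1 at 6.06 ± 1.83 with adjusted p = 0.796, Amy2a5 at 2.46 ± 0.79 with adjusted p = 0.999). Some females of the chicory experiment had high acinar markers too. Their summed level was 9.82 to 14.95 in female G12, 9.49 to 15.22 in female G35 and 9.17 to 12.33 in female Ctr1 mice. The part of these markers in the result was not tested. The differences were -0.72 ± 0.28 under G35 (adjusted p = 0.481) and -0.62 ± 0.28 under G12 (adjusted p = 0.394) in females. Without female Ctr1 replicate 3, at 12.66, they were -0.45 and -0.36. In males they were 0.54 ± 0.28 (adjusted p = 0.891) and 0.61 ± 0.28 (adjusted p = 0.999). Averaged over the sexes they cancelled, to -0.09 ± 0.20 under G35 and -0.01 ± 0.20 under G12. The difference between the sexes' responses (female minus male) was -1.26 ± 0.39 under G35 (adjusted p = 0.501) and -1.24 ± 0.39 under G12 (adjusted p = 0.356). Neither passed, and both rest on the same control mice. The fit with slide as a fixed block gave -1.13 ± 0.32 (adjusted p = 0.154) and -1.16 ± 0.32 (adjusted p = 0.0892). Over all genes, 0.0222% and 0.0333% passed for the 2 responses. In males, all control arrays lay at a block position of the slide that no treated array had, so position and gavage cannot be told apart there.

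Zbtb16 was at 10.24, 9.92 and 9.69 log2 in male G35 mice and at 9.28, 9.60 and 10.31 in male G12 mice, against 9.66, 7.70 and 9.01 in male Ctr1 mice. Female G35 mice had 9.82, 10.17 and 10.30 and female G12 mice 9.63, 9.74 and 10.10, against 9.85, 9.89 and 9.71 in female Ctr1 mice. Only G35 males were clear of their controls, as were 6.48% of all genes on the higher side. The difference under G35 was 1.16 ± 0.43 in males (adjusted p = 0.608) and 0.28 ± 0.43 in females, or 0.72 ± 0.31 averaged over the sexes (adjusted p = 0.562). A single control liver carried much of it. Without male Ctr1 replicate 2, at 7.70, the difference was 0.61 in males and 0.44 averaged over the sexes. Probes beside the Zbtb16 probe on that array deviated by -0.06 at the median from the mean of its group, so the low value was not shared by its surroundings. Where both were present on one slide in one sex, G35 was higher in 4 of 4 sets, by 0.15 to 2.22. The set with 2.22 holds the same control liver at 7.70. Fkbp5 was higher in 3 of 4 such sets, Tsc22d3 and Sgk1 in 2 of 4 each, and Zbtb16 under G12 in 1 of 4. The share over all genes was not counted. Under G12 the averaged difference was 0.47 ± 0.31 (adjusted p = 0.958), and 0.20 without the same control mouse.

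No Sgk1 difference between chicory and water passed the test. It was at 8.77, 8.55 and 8.67 log2 in female G35 mice and at 8.42, 8.44 and 8.25 in male G35 mice. In G12 mice it was at 8.89, 7.91 and 8.46 in females and at 8.44, 8.38 and 8.17 in males, and in Ctr1 mice at 7.98, 8.53 and 8.58 in females and at 8.30, 8.45 and 8.41 in males. Treated and control mice overlapped in both sexes. The averaged difference was 0.14 ± 0.14 under G35 (adjusted p = 0.902, interval -0.15 to 0.43) and 0.00 ± 0.14 under G12 (adjusted p = 0.999, interval -0.29 to 0.29). Probes around the Sgk1 probe deviated from their mean over all arrays by -0.58 at the median on the array of female G12 replicate 2, which has the lowest Sgk1 value, and from the mean of its own group by -0.37. Those around Zbtb16 deviated there by -0.40 and -0.24. Without that mouse the Sgk1 difference under G12 was 0.13.

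Between the chicory genotypes themselves no member passed (0% of all genes did, and 4.54% at an unadjusted p under 0.05 against 0 members). The G35 minus G12 difference was 0.06 ± 0.15 for Fkbp5, -0.08 ± 0.20 for Tsc22d3, 0.25 ± 0.31 for Zbtb16 and 0.14 ± 0.14 for Sgk1. These intervals are wide, and the widest, for Zbtb16, ran from -0.39 to 0.88.

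The second experiment set inulin against water. None of the 4 genes passed, and neither did any other gene, over both sexes, in females or in males (0% each). At an unadjusted p under 0.05 the counts were 0 members and 1.98% of genes. Fkbp5 was at 9.94, 10.00 and 10.32 log2 in female and 9.95, 10.38 and 10.10 in male Inulin mice, against 10.24, 9.60 and 10.61 in female and 10.47, 10.82 and 10.42 in male Ctr2 mice. Inulin males all lay below their controls, as did 3.19% of genes. All 3 male Inulin arrays lay at one block position and all 3 male Ctr2 arrays at another, so position and gavage cannot be told apart in these males either. The difference was -0.42 ± 0.21 in males and -0.24 ± 0.15 over both sexes (adjusted p = 1 for each).

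Tsc22d3 was at 10.63, 10.83 and 10.63 in female and 10.98, 10.63 and 10.68 in male Inulin mice, against 11.62, 10.37 and 10.51 in female and 10.79, 11.71 and 11.20 in male Ctr2 mice. The Inulin mice were closely grouped and the water mice spread widely. The averaged difference was -0.31 ± 0.20 (adjusted p = 1, interval -0.71 to 0.10), and -0.11 without female Ctr2 replicate 1, at 11.62. Zbtb16 was at 8.85, 9.35 and 9.95 in female and 9.21, 10.45 and 10.38 in male Inulin mice, against 10.00, 8.05 and 9.30 in female and 10.39, 10.21 and 10.03 in male Ctr2 mice, a difference of 0.03 ± 0.31. Sgk1 was at 9.18, 8.87 and 8.63 in female and 8.97, 9.03 and 9.10 in male Inulin mice, against 9.47, 8.90 and 9.08 in female and 9.12, 8.94 and 9.44 in male Ctr2 mice, a difference of -0.20 ± 0.14. Inulin and water mice overlapped for each of these 3 genes.

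G35 and inulin were set against each other through their own controls. The G35 difference exceeded the inulin difference by 0.51 ± 0.21 for Fkbp5, 0.22 ± 0.28 for Tsc22d3, 0.69 ± 0.43 for Zbtb16 and 0.34 ± 0.20 for Sgk1 (adjusted p = 1 for each). All 4 were positive, in the same mice and against the same controls, and none passed (0% of all genes did). The share of all genes with a positive difference is not given here, so the common sign cannot be read as particular to these genes. Only Fkbp5 had an unadjusted p under 0.05, against 2.88% of genes. The sexes' responses to inulin differed by 0.36 ± 0.30 for Fkbp5, 0.33 ± 0.39 for Tsc22d3, 0.46 ± 0.61 for Zbtb16 and -0.12 ± 0.28 for Sgk1, and no gene passed (0%).

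**Figure D2:**
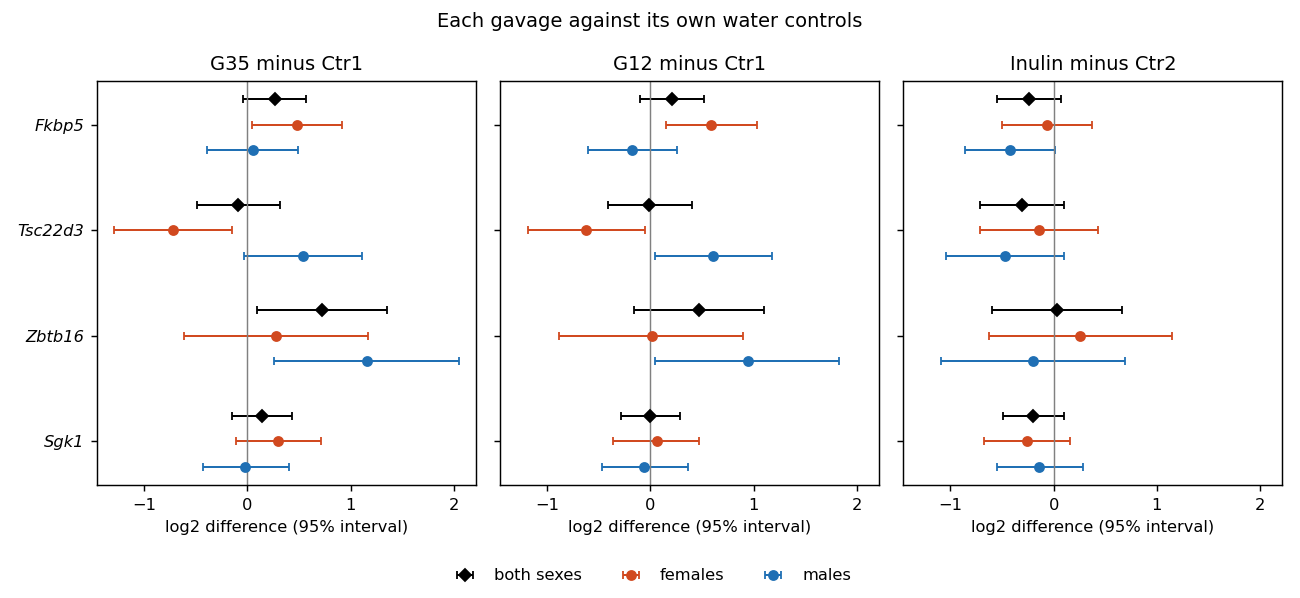
Log2 difference of each gavage from its own water controls for the 4 genes, with 95% intervals from limma's fit, over both sexes (diamonds, 6 mice against 6) and for females and males (circles, 3 against 3). No difference shown passed at an adjusted p under 0.05. Tsc22d3 lies left of 0 in chicory females and right of 0 in chicory males.

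The differences that passed lay between the control mice of the experiments. Sgk1 was higher in Ctr2 than in Ctr1 and Tsc22d3 lower, 2 of 4 members, where 22.9% of all genes passed. Sgk1 averaged 9.15 ± 0.29 log2 in female and 9.17 ± 0.25 in male Ctr2 mice, against 8.36 ± 0.34 in female and 8.39 ± 0.08 in male Ctr1 mice (SD, n = 3 each). Its range of 8.90 to 9.47 in Ctr2 did not meet the range of 7.98 to 8.58 in Ctr1, a separation that 3.18% of genes showed on the higher side. The difference was 0.78 ± 0.14 (adjusted p = 0.000622), 1.72-fold with an interval of 1.40 to 2.11. Slide as a random block left it at 0.75 ± 0.17 (adjusted p = 0.0051, 18.3% of genes called). It passed without each of the 12 control mice in turn, at 0.69 to 0.84. Probes around the Sgk1 probe differed by 0.11 at the median between Ctr2 and Ctr1, with array medians of -0.08 to 0.36 in Ctr2 and -0.15 to 0.09 in Ctr1 as deviations from the mean over all arrays. The array with 0.36 is that of female Ctr2 replicate 1, which has the highest Sgk1 value, and without this mouse the difference was 0.70 (adjusted p = 0.00245). The Inulin mice shared the high level, at 8.63 to 9.18.

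Tsc22d3 averaged 10.84 ± 0.68 in female and 11.23 ± 0.46 in male Ctr2 mice, against 12.13 ± 0.49 in female and 11.03 ± 0.20 in male Ctr1 mice (SD, n = 3 each). The difference of -0.55 ± 0.20 had an adjusted p of 0.0457. This call was lost with slide as a random block (-0.57, adjusted p = 0.0761), with only the groups compared in the fit (adjusted p = 0.146) and in 9 of the 12 fits that left out 1 control mouse (-0.74 to -0.42). It was kept without female Ctr1 replicate 2, without male Ctr2 replicate 2 and without female Ctr2 replicate 1. The female Ctr1 mice, which also set the female chicory differences, were the highest of all groups for this gene. Fkbp5 differed by -0.16 ± 0.15 and Zbtb16 by 0.36 ± 0.31, and neither passed. Period, slides and experiment cannot be told apart here. Some markers of cell types also differed between the same groups, where 22.9% of all genes were called. All 6 measured erythroid markers were at negative differences, with a median of -0.88 and 5 called lower, and their summed level was 15.67 to 16.29 log2 in female and 15.53 to 16.22 in male Ctr2 mice, against 16.57 to 17.11 in female and 16.42 to 16.72 in male Ctr1 mice. Of 6 stellate cell and fibroblast markers, Acta2 (-0.91), Col3a1 (-0.41) and Pdgfrb (-0.30) were called lower and Dcn (0.47) higher. Of 7 endothelial markers Eng (-0.40) was called lower and Clec4g (0.46) higher, and Cd3e (-1.02) was the 1 of 5 T, NK and B cell markers called. Alb (-0.47) was the 1 of 9 hepatocyte markers called and Timd4 (0.32) the 1 of 11 for Kupffer cells and macrophages. The part of these markers in the differences was not tested. In a piece of liver, a change in the number of cells of a type and a change in RNA per cell cannot be told apart.

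No member was called between females and males, over all gavages or over the controls alone, where 20.5% and 5.46% of genes were called. Sex labels matched the sex-biased cytochrome P450 genes Cyp2d9, at 8.74 to 10.34 in females and 11.62 to 13.76 in males, and Cyp3a44, at 12.16 to 13.02 in females and 5.75 to 8.29 in males. Over all gavages the female minus male difference was 0.18 ± 0.09 for Fkbp5 (adjusted p = 0.182), 0.07 ± 0.12 for Tsc22d3, -0.09 ± 0.19 for Zbtb16 and 0.04 ± 0.09 for Sgk1. With slide as a fixed block, which rests on the slides that held both sexes, Tsc22d3 was higher in females by 0.60 ± 0.18 (adjusted p = 0.036, 14.4% of genes called). Over the controls it was then higher by 0.84 ± 0.19 (adjusted p = 0.0103, 12.6% called). Neither call was made with slide as a random block, at 0.21 ± 0.14 (adjusted p = 0.334) and 0.46 ± 0.18 (adjusted p = 0.104), where no member was called. Without slide, mean Tsc22d3 was higher in females than in males only in Ctr1, at 12.13 against 11.03 log2. In Ctr2 it was 10.84 in females and 11.23 in males, and females were also lower under G35, G12 and inulin. On the 3 slides with both sexes, the female minus male difference of Tsc22d3 was 1.18, 0.38 and 0.71. These slides held 4 females and 7 males in all, and the single female on the first of them had the highest Tsc22d3 value of all mice, 12.66.

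**Figure D3:**
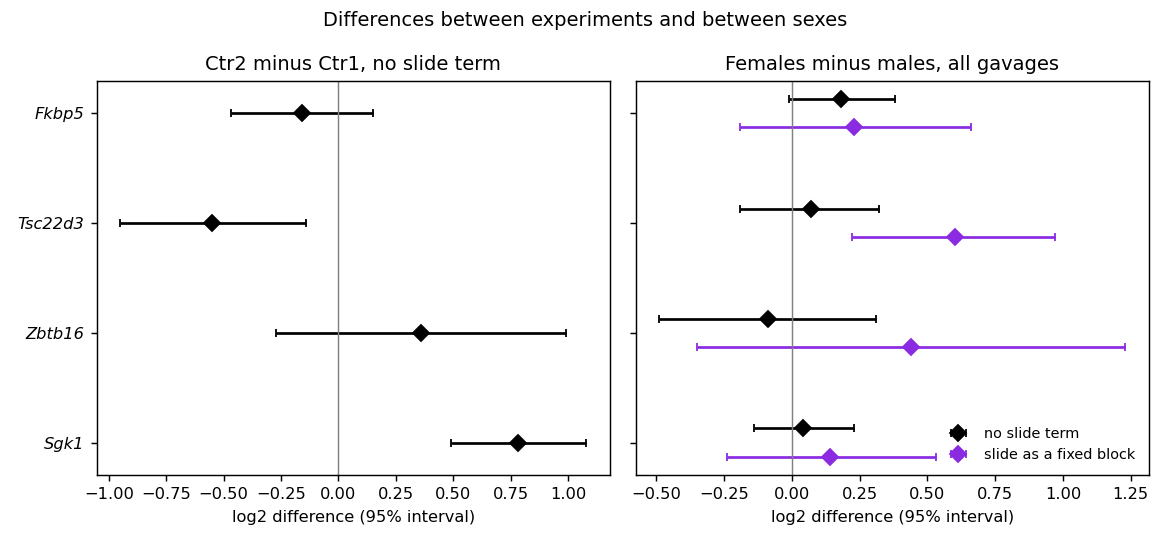
Left, log2 difference between the water controls of the inulin and the chicory experiment (Ctr2 minus Ctr1, 6 mice each) for the 4 genes. Right, females minus males over all gavages (15 mice each), in black without slide and in violet with slide as a fixed block; bars are 95% intervals. Sgk1 and Tsc22d3 are clear of 0 on the left, and Tsc22d3 is clear of 0 on the right in the fit with slide.

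Mice with a high level of 1 gene were not regularly high for the others, and no pair passed within either experiment. Over 30 mice, 6 pairs were computed, with two-sided permutation p-values adjusted over the 6. Tsc22d3 and Sgk1 had r = -0.50 and rho = -0.59 (adjusted permutation p = 0.0286 and 0.00408), and r = -0.55 without the 2 mice farthest from the median of Tsc22d3. Within the chicory experiment r was -0.27 and rho -0.36 (18 mice, adjusted permutation p = 0.813 and 0.324), and r was -0.57 without the 2 farthest mice (adjusted permutation p = 0.132). Within the inulin experiment r was 0.43 (12 mice, adjusted permutation p = 0.243), so the pooled relation did not pass within either experiment and its sign differed between them. Fkbp5 and Tsc22d3 had r = 0.42 and rho = 0.39 (adjusted permutation p = 0.0437 and 0.098), with -0.08 and 0.47 within the experiments and 0.30 without the 2 farthest mice. Fkbp5 and Sgk1 had r = -0.43 and rho = -0.29 (adjusted permutation p = 0.0437 and 0.176), with -0.07 and 0.13 within the experiments and -0.29 without the 2 farthest mice. After slide and sex were taken out, Fkbp5 and Zbtb16 had r = 0.45 and rho = 0.59 (adjusted permutation p = 0.0808 and 0.00426), and r = 0.59 without the 2 farthest mice. The permutation treats these residuals as independent, which they are not within a slide, so its p-values can be too small. By r on the residuals, Zbtb16 ranked 451 of 8995 genes for Fkbp5, and Fkbp5 ranked 271 for Zbtb16. On the values with slide and sex left in, this pair had r = 0.36 over all mice, 0.20 within the chicory and 0.71 within the inulin experiment, where it was 0.48 without the 2 farthest mice.

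For each member, the 5 genes most like it over the 30 arrays were found by Pearson r on values with slide and sex taken out, given without a test. Tsc22d3 was followed most closely by Itprip (r = 0.83), Pik3r1, the regulatory subunit of phosphoinositide 3-kinase (0.81), Cys1 (0.79), Arrdc2 (0.75) and Rnf169 (0.75). Sgk1 was followed by Pik3cb, a catalytic subunit of the same kinase (0.81), Apob, the main apolipoprotein of very low density lipoproteins (0.80), Filip1l (0.75), Akr1b10 (0.75) and Dock10 (0.74). Those of Fkbp5 were Hecw2 (0.78), Lrrfip1 (0.76), Smarce1 (0.76), Tns1 (0.75) and Smc6 (0.75). Those of Zbtb16 were Rad54l2 (0.78), Susd6 (0.77), Chd7 (0.77), Top1 (0.75) and Hecw2 (0.74). No member was among the 5 of another. With values as they were, r was lower for most, such as 0.05 for Smarce1 with Fkbp5 and 0.24 for Arrdc2 with Tsc22d3. It was close to the same for Pik3r1 with Tsc22d3 (0.80) and Top1 with Zbtb16 (0.76), and higher for Dock10 with Sgk1 (0.85). The arrays share slides and the normalisation.

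Of 35 other known targets of the receptor, 29 were measured. Under G35, 25 of the 29 were higher than in Ctr1 and 0 were called, with a median of 0.19 log2 against -0.01 over all genes, of which 47.4% were higher. Those with the lowest p were Pdk4, a brake on glucose oxidation, at 0.99 ± 0.24 (adjusted p = 0.215), Lpin1, a phosphatidate phosphatase induced in fasting, at 1.03 ± 0.29 (adjusted p = 0.263), Igfbp1, a binding protein of insulin-like growth factors, at 0.68 ± 0.24 and the repressor Bcl6 at -1.34 ± 0.40. Pdk4 passed with slide as a random block (adjusted p = 0.0318, 0.367% of genes called). Under G12, 21 of 29 were higher with a median of 0.10, led by Igfbp1 at 0.59 ± 0.24 and Pdk4 at 0.44 ± 0.24, and 0 were called. Under inulin, 6 of 29 were higher with a median of -0.20, and 0 were called, with Pim3, a kinase, at -0.60 ± 0.22 and the arrestin relative Arrdc3 at 0.65 ± 0.26.

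The same list was split by sex in the chicory experiment. Of the 29, 14 were higher in G35 females (median -0.03) and 26 in G35 males (median 0.48), and 10 in G12 females (median -0.15) and 25 in G12 males (median 0.29). Under inulin, 11 were higher in females (median -0.25) and 6 in males (median -0.29). Over all genes the medians in these 6 comparisons were -0.03 to 0.01, with 41.9% to 52.1% of genes higher. High acinar markers, named above for G12 males, were also found in some females of the chicory experiment. Control arrays of the males had a slide position of their own in each experiment. In the fit with slide as a fixed block, 3 of them, Per1, Igfbp1 and Cebpb, were called higher in G35 males, where 0.356% of genes were called, by 1.00 ± 0.18, 1.23 ± 0.25 and 0.73 ± 0.12. In G12 females the same fit called Tdo2 higher by 0.93 ± 0.22 and Cebpb, Dusp1 and Errfi1 lower, at -0.57 ± 0.14, -0.81 ± 0.21 and -1.32 ± 0.33, where 4.55% of genes were called.

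Per1, a repressor of the circadian clock that glucocorticoids also induce, was the one listed target whose response was called as different between the sexes. It was at 9.10, 8.90 and 8.90 log2 in female G35 and 8.66, 9.32 and 8.77 in female G12 mice, against 9.91, 9.23 and 9.61 in female Ctr1 mice. In males it was at 9.02, 9.13 and 9.22 in G35 and 9.07, 8.87 and 9.09 in G12 mice, against 8.10, 7.91 and 8.36 in Ctr1 mice. Treated mice of both sexes lay above all control males, and all but 1 of them lay below all control females. The female minus male difference in response was -1.61 ± 0.29 under G35 (adjusted p = 0.0457) and -1.55 ± 0.29 under G12 (adjusted p = 0.0493). The calls were lost with replicate number as a block (adjusted p = 0.151 and 0.0531), with only the groups compared (0.0923 and 0.458), and in 10 and 9 of the 12 fits that left out 1 mouse. The direction is that of Tsc22d3, in the same mice and against the same controls. Of 13 measured circadian clock genes, 5 were higher in G35 females (median -0.16) and 9 in G35 males (median 0.21), and their part in the pattern was not tested.

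**Figure D4:**
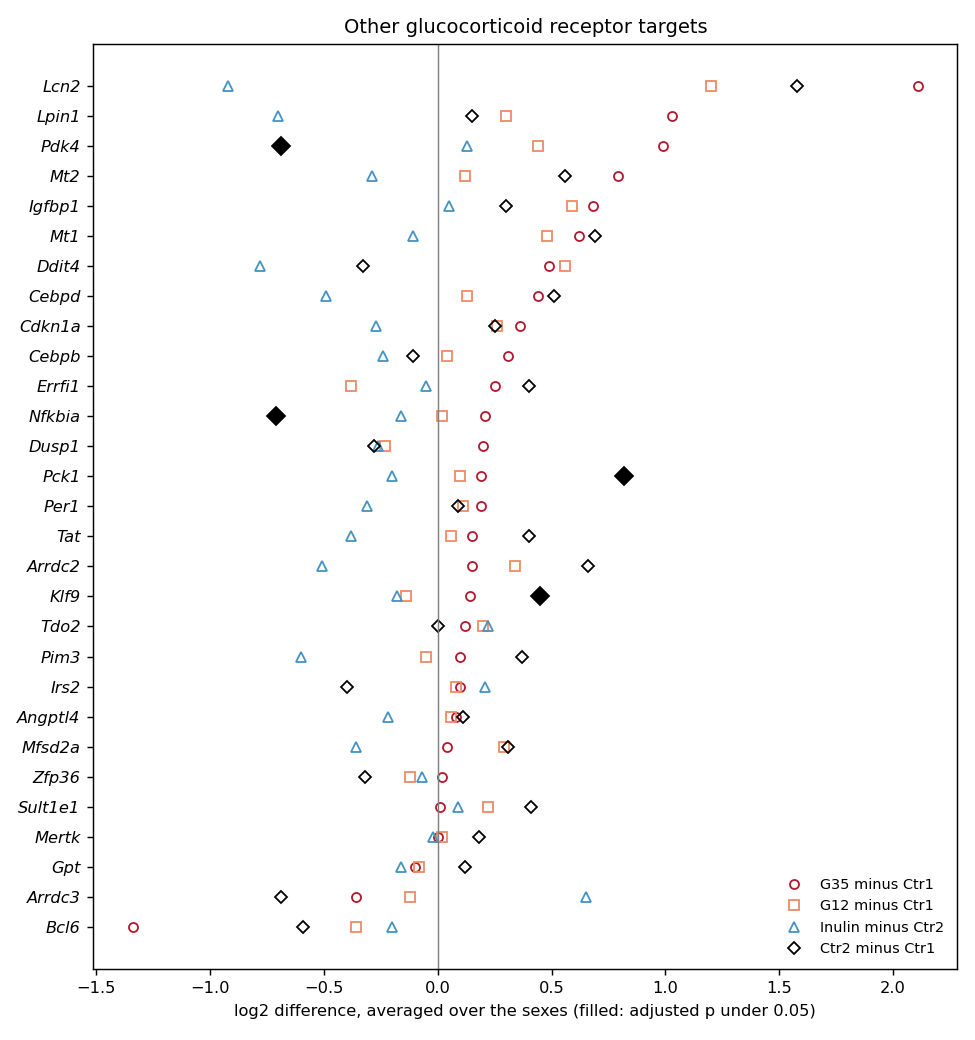
Log2 difference over both sexes for the 29 measured other glucocorticoid receptor targets, in rows ordered by G35 minus Ctr1 (circles), with G12 minus Ctr1 (squares), Inulin minus Ctr2 (triangles) and Ctr2 minus Ctr1 (diamonds). Filled symbols passed at an adjusted p under 0.05 and are found only for Ctr2 minus Ctr1. Most circles lie right of 0 and most triangles left of it.

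Between the experiments, 2 of these targets were higher in Ctr2, the gluconeogenic enzyme gene Pck1 by 0.82 ± 0.16 (adjusted p = 0.00126) and the factor Klf9 by 0.45 ± 0.16 (adjusted p = 0.045). Nfkbia, the inhibitor of NF-kappa-B, was lower, at -0.71 ± 0.17 (adjusted p = 0.00449) and Pdk4 at -0.69 ± 0.24 (adjusted p = 0.0408). The 4 calls make up a smaller share of the 29 than the 22.9% over all genes. They come from the fit without slide, and Klf9 and Pdk4 lie near its threshold of 0.05. Period, slides and experiment cannot be told apart in them. By sex over all gavages, 8 of the 29 were called higher in females and 1 lower, beside 20.5% of all genes called in either direction. Sult1e1, the oestrogen sulfotransferase, was higher by 2.07 ± 0.12 (adjusted p = 5.49e-12), the lysolipid transporter Mfsd2a by 1.42 ± 0.14 and Per1 by 0.45 ± 0.09, and Klf9 was lower, at -0.54 ± 0.10.

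Of 25 genes of the receptor and its handling, 17 were measured, and 0 were called under any gavage without slide in the model. Nr3c1, the receptor itself, averaged 9.71 ± 0.17 log2 in female and 9.76 ± 0.15 in male G35 mice, 9.71 ± 0.14 in female and 9.43 ± 0.16 in male G12 mice, and 9.67 ± 0.47 in female and 9.37 ± 0.10 in male Ctr1 mice (SD, n = 3 each). Its G35 difference was 0.21 ± 0.13 (adjusted p = 0.723), beside 0.27 ± 0.10 for Ppid, an Hsp90 co-chaperone, 0.34 ± 0.22 for Serpina6, the plasma carrier of the hormone, and 0.20 ± 0.19 for Hsp90aa1. Under G12, Fkbp4, the co-chaperone that opposes Fkbp5, was at 0.27 ± 0.15 and Ppid at 0.18 ± 0.10. Under inulin, Hsp90aa1 was at 0.49 ± 0.19 and Ptges3, the co-chaperone p23, at 0.28 ± 0.12. The coactivator Ncoa3 was called lower with slide as a fixed block in G35 females, at -1.04 ± 0.22 (adjusted p = 0.0447, 0.867% of genes called), and in G12 females, at -1.19 ± 0.20 (adjusted p = 0.00957). Males went the other way in that fit, uncalled, at 0.40 ± 0.18 under G35 and 0.38 ± 0.19 under G12. Only 1 slide held both G35 and Ctr1 females, so the female G35 estimate rests on few direct contrasts.

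Between Ctr2 and Ctr1, 4 of the 17 were called, beside 22.9% of all genes. The chaperone gene Hspa8 was lower, at -1.58 ± 0.41 (adjusted p = 0.00832), Hsp90aa1 at -0.66 ± 0.19 (adjusted p = 0.0136) and Ptges3 at -0.57 ± 0.12 (adjusted p = 0.00189), while Med1, a subunit of the Mediator complex, was higher by 0.50 ± 0.15 (adjusted p = 0.0181). Other co-chaperone genes were not called and lay on both sides, with Ppid at 0.18 and Fkbp4 at -0.17. Hspa8 varied with slide. Its G35 difference in males had a standard error of 0.58, and of 0.16 with slide as a fixed block. No slide held mice of both experiments, so slide and experiment cannot be told apart in these calls. By sex over all gavages 4 of the 17 were called, beside 20.5% of all genes, and Serpina6 was higher in females by 0.59 ± 0.14 (adjusted p = 0.00401). Med1 was lower, at -1.20 ± 0.09 (adjusted p = 1.37e-09), Stip1 at -0.42 ± 0.11 and Ppid at -0.25 ± 0.07. With slide as a fixed block Nr3c1 was higher in females by 0.53 ± 0.12 (adjusted p = 0.00652), against 0.17 ± 0.08 (adjusted p = 0.126) without it, the same turn as for Tsc22d3.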

How the data were processed

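One array was hybridised for each of the 30 livers. What the authors deposited are linear intensities per probe. The submitters' processing notes name Agilent Feature Extraction, and its version and the signal column taken from it are not given in the sources used here. Each is a whole number, from 39 to 65535, with array medians of 141 to 511, so no normalisation is visible in the deposited intensities, and background flags were not used here. The number of arrays limits the precision. Values were corrected with normexp (offset 50), quantile normalised and put on the log2 scale. Of 15505 probes, 12544 carried 1 symbol in the platform annotation, 2961 none and 0 several, and a gene took its brightest probe, which left 8996 genes.

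limma 3.58.1 in R 4.3.3 fitted all arrays in 1 model with a mean for each of 10 groups and 20 residual degrees of freedom, with p-values adjusted by Benjamini-Hochberg over all genes and a threshold of 0.05. Differences carry the standard error and 95% interval of that fit. Replicates are separate mice per the labels, taken with groups and slides from the labels. Correlations used scipy 1.17.1 with 100000 permutations, and promoter windows came from RefSeq on GRCm38.p6. Alternatives were slide as a fixed or random block, the replicate number as a block, other normalisations and filters, only the groups compared, and each array left out. In the chicory experiment correlations of residuals between mice that carry the same number were 0.121 to 0.706 within a sex (18 pairs). Between the sexes they were 0.152 to 0.618 (27 pairs). Number and slide largely coincide there, so a pairing of mice cannot be told apart from shared slides. In the inulin experiment the correlations within a sex were -0.525 to 0.081 (6 pairs). The replicate block within experiment and sex was added after seeing the data, and so was the array layout of 85 features per line behind the neighbourhood values. The fit was also run on simulated data, only for G35 minus Ctr1 over both sexes and with independent noise for each array. That simulation held no slide effect, so it does not cover shared slides or the comparisons of experiments and sexes. In the data, the fit with slide as a random block had a consensus correlation within slides of 0.386.

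The 4 genes and the gene lists were chosen with earlier results of these data known. Genes named beside them are the 4 of each list with the lowest p under G35, for receptor signalling and other targets also 4 between the sexes and 2 each under G12 and inulin, and list members called where 5 or fewer were. Genes called only with slide in the model and the gene-by-sex values of Per1 were named after their values were seen. No table column of other samples was used (0 present). No promoter window was matched for Zbtb16.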

Additional observations from a re-analysis of the deposited data

Results flagged for a closer look

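Of the 4 genes under 3 gavages, 3 responses had every treated female on one side of the mean of the female controls and every treated male on the other side of the mean of the male controls. Tsc22d3 under G35 was one, with a female minus male difference in response of -1.26 ± 0.39 (SE, adjusted p = 0.501). The others were Tsc22d3 under G12, at -1.24 ± 0.39 (adjusted p = 0.356), with females below and males above their controls as under G35, and Fkbp5 under G12, at 0.76 ± 0.30 (adjusted p = 0.454), with females above and males below. None of the 3 differences passed limma's test. How many of all genes meet this rule was not counted, so the 3 cannot be read as particular to these genes. The 3 share the Ctr1 mice, whose male arrays lay at a slide position of their own, so position and gavage cannot be told apart in males. Groups of 3 mice were not searched for single outlying livers.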

How the results depend on the processing

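The count of members called kept its value of 0 for each gavage comparison under every alternative run. It was 2 for Ctr2 against Ctr1, and 1 (Sgk1) with slide as a random block, 1 with only the groups compared and 1 to 2 without each of the control mice in turn. Between the sexes it was 0, and with slide as a fixed block 1 over the controls and 1 over all gavages, Tsc22d3 each time. The causes of these changes were not tested. With the replicate number as a block, no member's call changed in the 16 comparisons that allow it, while the Per1 responses had adjusted p = 0.151 under G35 and 0.0531 under G12. With the block taken within sex as well, these were 0.0834 and 0.0679. Ctr2 against Ctr1 could not be fitted with slide or replicate number as a fixed block, and the comparison of the sexes not with the block within sex. The Per1 adjusted p was also 0.0607 and 0.0806 with scaling to the 75th percentile, 0.0835 under G35 with slide as a fixed block and 0.0503 under G12 with every probe. Leaving out 1 mouse gave 0.0263 to 0.184 under G35 and 0.014 to 0.28 under G12.

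Signs turned for small differences that passed nowhere. With slide as a fixed block Tsc22d3 under G12 was 0.01, and in Inulin females Fkbp5 was 0.03 and Tsc22d3 0.25. The sexes' responses to inulin then differed by 0.09 for Sgk1, and females minus males was 0.43 for Zbtb16 and 0.07 for Sgk1 over the controls and 0.44 for Zbtb16 over all gavages. With slide as a random block Tsc22d3 under G12 was 0.00, and Zbtb16 between the sexes 0.08 over the controls and 0.06 over all gavages. Sgk1 in G35 males was 0.00 with scaling to the 75th percentile, and Zbtb16 in G12 females -0.02 with cyclic loess.

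Without 1 mouse, Fkbp5 ran from -0.05 to 0.17 in G35 males, -0.01 to 0.18 for G35 minus G12 and -0.34 to 0.17 in Inulin females. Tsc22d3 ran from -0.20 to 0.04 under G35, -0.12 to 0.13 under G12, -0.16 to 0.01 for G35 minus G12, -0.37 to 0.25 in Inulin females and -0.01 to 0.11 between the sexes over all gavages. Zbtb16 ran from -0.13 to 0.10 in G12 females, and under inulin from -0.24 to 0.25 over both sexes, -0.27 to 0.70 in females, -0.42 to 0.20 in males and -0.07 to 0.90 between the sexes' responses. Females minus males for Zbtb16 was -0.20 to 0.02 over all gavages and -0.31 to 0.23 over the controls. Sgk1 ran from -0.06 to 0.04 in G35 males, and under G12 from -0.12 to 0.13 over both sexes, -0.18 to 0.31 in females, -0.11 to 0.02 in males and -0.12 to 0.37 between the sexes' responses. Its responses to inulin differed by -0.26 to 0.04, and females minus males was -0.01 to 0.09 over all gavages and -0.10 to 0.08 over the controls.

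Correlations with slide and sex taken out were 0.06 for Fkbp5 and Tsc22d3, -0.40 for Fkbp5 and Sgk1, -0.21 for Tsc22d3 and Sgk1 and -0.31 for Zbtb16 and Sgk1. Within the chicory experiment they were -0.08, -0.07, -0.27 and -0.01 in that order of pairs. Within the inulin experiment the first 3 pairs had 0.47, 0.13 and 0.43. Without the 2 farthest mice the first 2 pairs had 0.30 and -0.29.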

Other observations

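Other gene lists under G35 are given as counts and medians beside the -0.01 log2 of all genes, of which 0.0556% were called. The share of all genes that were higher under G35 is given above with the other targets. These lists, too, were chosen with earlier results of these data known. All 19 measured acute phase genes, which liver secretes in inflammation, were higher in G35 than in Ctr1 mice, with a median of 0.55 and 1 called, Saa3, at 0.96 ± 0.18 (adjusted p = 0.0255). Saa1 was at 3.39 ± 0.92 (adjusted p = 0.25), Saa2 at 2.89 ± 0.80 and Apcs at 1.07 ± 0.34. All 11 Kupffer cell and macrophage markers measured were higher, with a median of 0.24 and 0 called, led by C1qb at 0.30 ± 0.15. Of 13 circadian clock genes 8 were higher (median 0.12), with Nfil3 called at 0.95 ± 0.16 (adjusted p = 0.014), beside Noct at 0.43 ± 0.17, Hlf at -0.34 ± 0.15 and Dbp at -0.35 ± 0.16.

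Among genes of the fasting response on the side of the receptor PPAR-alpha, 7 of 15 were higher (median -0.01), with the coactivator Ppargc1a at 0.48 ± 0.19 and the hormone Fgf21 at -0.27 ± 0.30. Of 11 lipogenic genes of the fed state 3 were higher (median -0.04), with the lipogenic regulator Srebf1 at -0.39 ± 0.14. Neither list had a called gene under G35. In Ctr2 against Ctr1, 7 of the 15 fasting genes were called higher and 0 lower, with a median of 0.28 against 0.04 over all genes, of which 22.9% were called in either direction. Of cell type markers, 6 of 9 for hepatocytes (median 0.05), 2 of 7 for endothelium (-0.12), 2 of 6 for stellate cells and fibroblasts (-0.09), 2 of 5 for T, NK and B cells (-0.12), 1 of 6 for erythroid cells (-0.14) and 1 of 2 for pancreatic acinar cells (-0.07) were higher under G35, with 0 called. Under G12 both acinar markers were higher, Ctrb1 at 3.68 ± 1.29 and Amy2a5 at 1.88 ± 0.56, with 0 called. No cholangiocyte marker was measured (0 of 6).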
